A study of Mus musculus with 10 samples.

Results

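Eukaryotic translation initiation factors were followed in cultured mouse peritoneal macrophages of 2 genotypes. Members were the protein-coding genes whose mouse symbol starts with Eif1 to Eif6, without the Eif2ak kinases and Eif2s3y, that had at least 1 CPM (counts scaled to the library total) in at least 5 libraries. Among 53465 genes measured, 50 fitted by name and biotype and 48 of them met the CPM rule. Eif4ebp3, which encodes an eIF4E-binding protein, had between 1 and 14 counts in each library, and Eif4e1b, an eIF4E relative best known from oocytes, was listed at 0 in every library. The rule itself uses names and levels, not differences between the genotypes.

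The bulk RNA-seq libraries came from control mice (CTR, 5 libraries) and from Mac-GsαKO mice (KO, 5 libraries), aged 6 to 8 weeks. The name of the KO mice says that their macrophages have no Gsα. This G protein subunit, the product of Gnas, couples receptors to adenylyl cyclase and so to cyclic AMP. The cells were kept in standard medium with serum and antibiotics, with no added treatment in either genotype. The sources used here do not give the alleles, the Cre driver or the strain, nor whether libraries and mice correspond one to one. Errors and p-values therefore measure the spread between these libraries, which may be technical.

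Library totals ranged from 15664243 to 19235777 counts, so a gene at 0 counts may have had up to 3 counts, or 0.156 to 0.192 CPM depending on the library (counting error only). Gnas stood at 487, 359, 459, 491 and 378 CPM in CTR 1 to CTR 5 and at 43.5, 37.0, 39.6, 42.3 and 38.8 CPM in KO 1 to KO 5, lower in every KO library than in any CTR library. Each of 7 macrophage markers, among them Cd68, Csf1r and Adgre1, was detected in every library. Their summed level was 29961 to 38287 CPM in CTR, highest in CTR 4, and 14530 to 16074 CPM in KO, and the lysozyme gene Lyz2, at a mean of 17884 CPM over the 10 libraries, was the largest part of that sum. Lyz2 was lower in KO (log2 fold change -1.52, edgeR adjusted p = 2.03e-05), while Csf1r (0.46, adjusted p = 0.0235) and Itgam (0.79, adjusted p = 0.0494) were higher and the other 4 did not pass. The 5 fibroblast markers summed to 30.1 to 137 CPM in CTR, highest in CTR 5, and to 48.6 to 65.3 CPM in KO. The 5 neutrophil markers summed to 56.4 to 119 CPM in CTR and to 48.6 to 73.8 CPM in KO. Ly6g and Ngp were at 0 in every library, while S100a8 and Mmp8 were detected in every library. Mmp8 was on average the largest part of that sum. S100a8 was lower in KO (log2 fold change -0.56, edgeR adjusted p = 0.0443), and Mmp8 did not pass (-0.66, adjusted p = 0.119). The 5 T and NK cell markers summed to at most 1.56 CPM in any library, and the 5 B cell markers to at most 8.69 CPM. The 4 mast cell markers summed to between 1.39 and 27.3 CPM and the 5 mesothelial markers to between 5.90 and 34.6 CPM. Their part in the results below was not tested. In bulk RNA a change in the number of cells of a type and a change in RNA per cell cannot be told apart. CTR 4 stood far from the other CTR libraries for 5 of the genes described here, and CTR 5 for 1, so the values of several genes are also given without both. KO 5 stood far from the other KO libraries for 3. The left-out pair was chosen from these same data and from CTR alone, which can narrow the CTR spread. Adjusted p-values without CTR 4 and CTR 5 are therefore descriptive.

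Initiation brings the small ribosomal subunit to an mRNA and places the initiator tRNA on the start codon. eIF2 carries the initiator tRNA, eIF2B reloads eIF2 with GTP, eIF1 and eIF1A guard start codon choice, and eIF3 is the large scaffold on the small subunit. eIF4F, made of the cap-binding eIF4E, the helicase eIF4A and the scaffold eIF4G, brings in the capped mRNA, while eIF4E-binding proteins (4E-BPs) hold eIF4E back until mTORC1 phosphorylates them. eIF5 and eIF5B act at start codon recognition and at joining of the large subunit. In macrophages this step is known as a point where cytokine production is controlled after transcription.

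Levels of different genes were compared per length, on the authors' deposited FPKM (a level scaled to gene length and library total). Mean FPKM over the 10 libraries ran from 1.01 for Eif2b3, a subunit of eIF2B, to 89.5 for Eif5a, the hypusine-carrying factor of elongation and termination. Next in FPKM stood Eif4b, a cofactor of the eIF4A helicase, at 80.5, and Eif3h, an eIF3 subunit, at 77.4. Eif4a1, listed at 19.4 FPKM, could not be ranked, because its near-identical pseudogene Eif4a-ps4, which is no member, was listed at 517 FPKM. Without the eIF3j genes the 12 other eIF3 genes ran from 13.6 FPKM for Eif3e to 77.4 for Eif3h. The 5 eIF2B genes were lower in FPKM, between 1.01 and 10.9, and the eIF2 subunit genes Eif2s1, Eif2s3x and Eif2s2 stood at 12.5, 12.1 and 4.83 FPKM. Gene lengths behind these values, recovered from counts and FPKM, ran from 1329 bases for Eif1b to 19005 bases for Eif5, as whole gene models and not single transcripts, so an FPKM understates a gene whose expressed transcript is much shorter than its model.

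**Figure D1:**
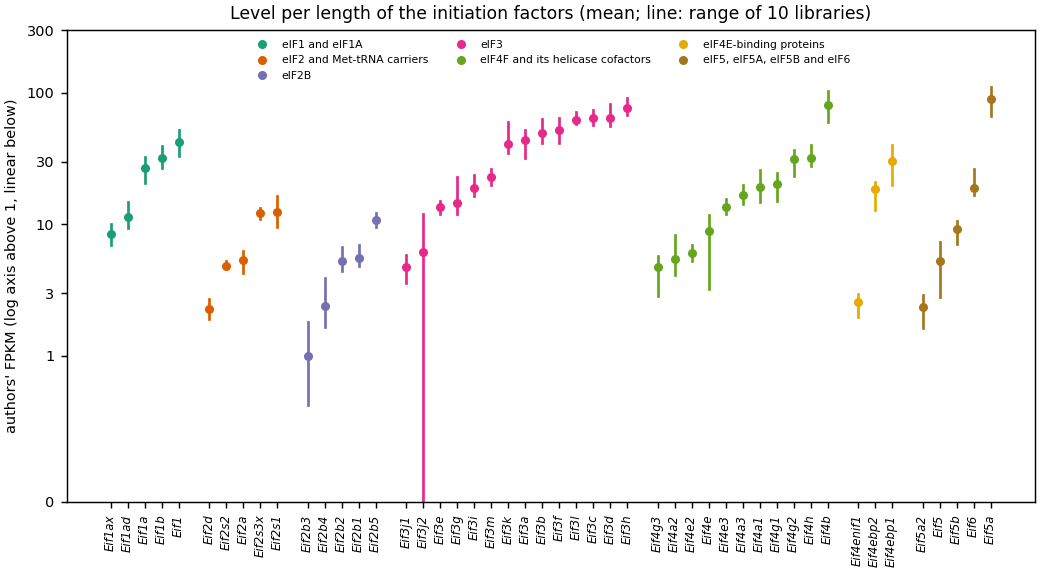
Mean deposited FPKM of each of the 48 members (points, coloured by factor group) with the range over the 10 libraries (lines), on an axis that is logarithmic above 1 and linear below. Eif5a, Eif4b and Eif3h are highest as counted, Eif2b3 is lowest at 1.01 FPKM, and the line of Eif3j2 reaches 0. The point of Eif4a1 leaves out reads counted to its near-identical pseudogene Eif4a-ps4, so its rank is uncertain.

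The comparison of KO with CTR asked which initiation factor transcripts differ in macrophages that lack Gsα. Few did. Eif2s1 and Eif3j1 fell and no member rose, in edgeR's quasi-likelihood test with p-values adjusted over all 13203 genes tested (threshold 0.05). These 2 of 48 members compare with 3.94% of all genes tested (1.83% higher and 2.11% lower), so the share of members called was near the background. At an unadjusted p under 0.05, 2 members were higher and 11 lower, against 10.0% and 11.9% of all genes. The DESeq2 Wald test called 2 higher and 8 lower, against 9.76% of all genes (4.54% higher and 5.23% lower). Limma voom with sample quality weights called 5 higher and 10 lower, against 14.5% of all genes (7.77% and 6.76%). Eif3j2, at 0 counts in KO 1 to KO 4, is among the lower members at unadjusted p, by voom and without KO 5. The count of lower members was 0 without CTR 3, without KO 1, without KO 2 or without KO 4, and 1 without CTR 1 or without CTR 5. Over all genes tested these fits called few too, 0.906%, 0.982%, 0.465% and 0.952% in the first 4 and 2.68% and 3.16% in the other 2. It was 4 without CTR 4, with 3 higher, against 6.49% of all genes (2.87% lower and 3.62% higher). It was also 4 without KO 5, with 2 higher, against 3.99% of all genes (2.17% lower and 1.82% higher). Without CTR 4 and CTR 5 together it was 5, with 3 higher, against 8.76% of all genes (3.63% lower and 5.13% higher). With replicate numbers as a block it was 0, with 0 higher, against 0.788% of all genes (0.341% lower and 0.447% higher).

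Differences were small. The log2 fold changes (KO over CTR) of 40 of the 48 members lay within 1.25-fold in either direction, against 72.6% of all genes tested, with a median standard error (SE) of 0.11. In value 34 members were below 0 and 14 above, against 50.8% of all genes below 0, with a median of -0.10 against -0.01 over all genes tested. Without CTR 4 and CTR 5 that split was 26 below and 22 above. In 11 members all 5 libraries of a genotype lay beyond all 5 of the other, 9 lower and 2 higher in KO, against 7.80% of all genes (4.55% lower and 3.25% higher). The 9 were Eif2s1, Eif2s2, Eif2b3, Eif3b, Eif3c, Eif3d, Eif3i, Eif3j1 and Eif3j2, and the 2 were Eif4b and Eif4ebp2. Eif3j2 counts among the 9, but it had 0 counts in KO 1 to KO 4 and its values are not read as those of the genotype. Summed over all members, CPM ranged from 5141 to 5526 in CTR and from 5005 to 5251 in KO, so the genotypes overlapped in the sum.

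**Figure D2:**
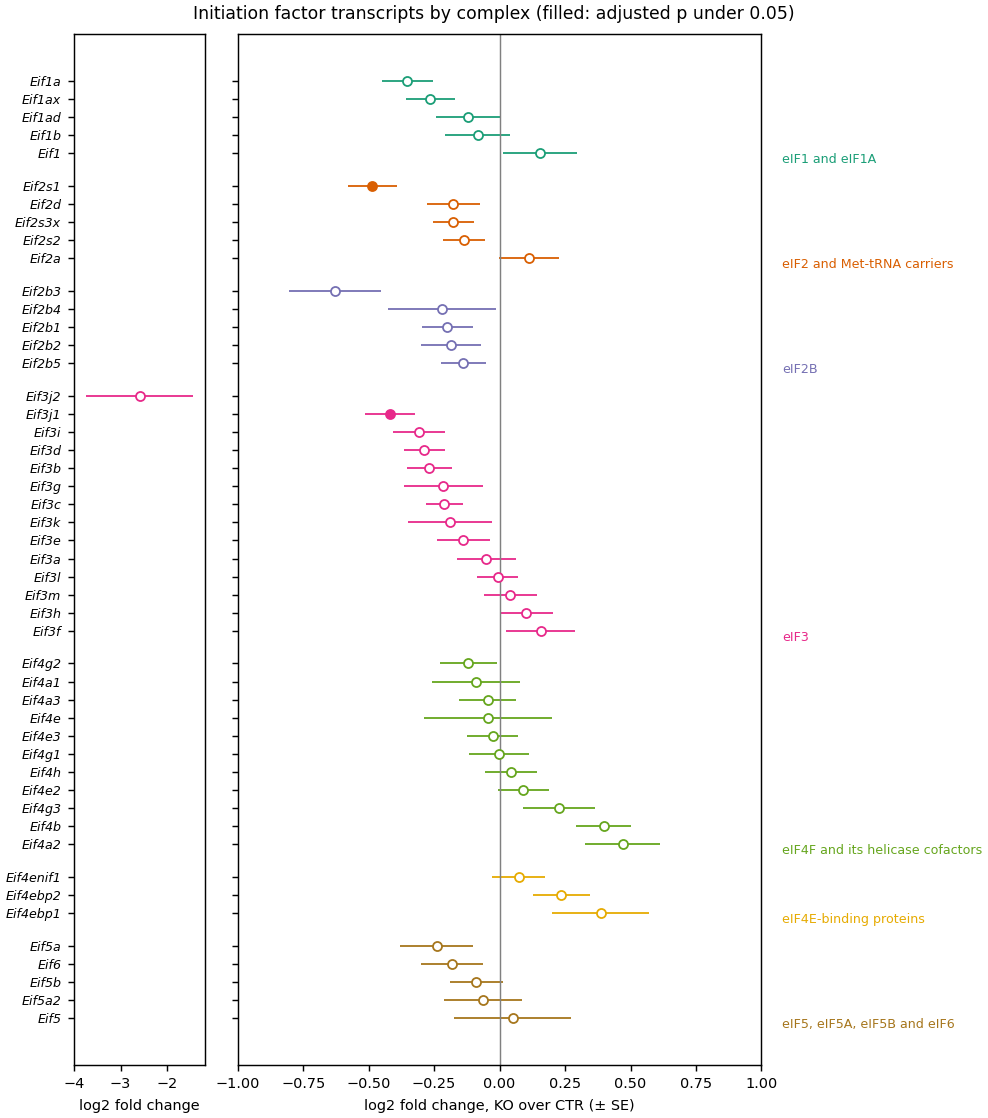
Log2 fold change (KO over CTR, with SE) of each member, grouped by factor complex. Eif3j2 is drawn in a panel of its own at the left because of its size. Filled points mark an adjusted p under 0.05, which Eif2s1 and Eif3j1 alone reached. All 5 eIF2B genes lie below 0 and the 3 genes of eIF4E-binding proteins above it, none of them called, and without CTR 4 and CTR 5 Eif2b4 and Eif4enif1 change side.

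The eIF2 group held the clearest difference. Eif2s1 (ENSMUSG00000021116), which encodes the alpha subunit of eIF2 whose phosphorylation slows translation under stress, stood at 72.9, 76.1, 76.8, 65.3 and 83.2 CPM in CTR 1 to 5 and at 48.6, 53.3, 61.5, 50.1 and 53.8 CPM in KO 1 to 5. All KO libraries lay below all CTR libraries. The mean fell from 74.9 ± 6.51 to 53.5 ± 4.97 CPM (SD, n = 5 each), or by 1.40-fold. The log2 fold change was -0.49 with an SE of 0.09, and the adjusted p was 0.0204. Without CTR 3, KO 1, KO 2 or KO 4 the call was lost, with adjusted p between 0.0562 and 0.0634, while the log2 fold change stayed between -0.48 and -0.45. Without CTR 4 and CTR 5 it was -0.49, and with the length and GC correction it was -0.38 (adjusted p = 0.0359).

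Eif2s2, the beta subunit gene, stood at 59.9, 60.7, 61.4, 73.1 and 62.3 CPM in CTR and at 57.2, 58.1, 56.7, 59.8 and 56.8 CPM in KO. The genotypes were separated by a narrow gap, with CTR 4 highest, and the gene did not pass the test (adjusted p = 0.340). Eif2s3x, the X-linked gamma subunit gene, stood at 55.4, 53.9, 53.6, 53.7 and 48.5 CPM in CTR and at 45.0, 46.2, 45.8, 45.5 and 52.3 CPM in KO. Here CTR 5 lay below KO 5, so the genotypes overlapped (adjusted p = 0.214), and the gene was called lower by voom alone. The sum of the 3 subunit genes ranged from 188 to 194 CPM in the CTR libraries and from 151 to 164 CPM in the KO libraries, so the sums did not overlap. That sum leaves out Eif2s3y, which is no member and had means of 42.1 CPM in CTR and 41.1 CPM in KO. Eif2a and Eif2d, whose products can bring initiator tRNA to the ribosome without eIF2, did not pass, with means of 42.2 and 22.7 CPM in CTR and 45.6 and 20.1 CPM in KO.

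None of the 5 eIF2B genes passed the edgeR test, and all 5 were below 0 in value (median -0.20). At an unadjusted p under 0.05, 1 was lower, against 11.9% of all genes. DESeq2 and voom each called the same 1, Eif2b3, as lower (adjusted p = 0.0215 and 0.0381), against 5.23% and 6.76% of all genes. Eif2b3, the gamma subunit gene of the exchange factor, stood at 7.77, 6.89, 9.03, 9.60 and 13.4 CPM in CTR and at 4.98, 6.404, 6.59, 5.68 and 6.49 CPM in KO. The genotypes did not overlap, and CTR 5 was the highest library. The log2 fold change of Eif2b3 was -0.63 (SE 0.18, adjusted p = 0.0672), and -0.39 without CTR 4 and CTR 5 (adjusted p = 0.121). The other subunit genes had KO means of 12.8 CPM for Eif2b4, 19.0 for Eif2b1, 21.7 for Eif2b2 and 37.8 for Eif2b5, against 14.95, 21.8, 24.7 and 41.6 CPM in CTR. Eif2b4 was above 0, at 0.13, and the other 4 eIF2B genes below it without CTR 4 and CTR 5.

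Of the 5 genes of the eIF1 and eIF1A group none passed. At an unadjusted p under 0.05, 2 were lower and 0 higher, against 11.9% and 10.0% of all genes. Eif1a, which encodes eIF1A, stood at 140.5, 142.8, 149 and 120.8 CPM in CTR 1 to 4 and 140.0 CPM in CTR 5, against 103, 93.8, 115, 106 and 127 CPM in KO 1 to 5. The genotypes overlapped through CTR 4 and KO 5. Its log2 fold change was -0.35 (SE 0.10, adjusted p = 0.0610), and -0.41 without CTR 4 and CTR 5 (adjusted p = 0.0253). With the length and GC correction Eif1a had -0.22 (adjusted p = 0.140). Eif1a was called lower in 5 of 19 other settings, by DESeq2, by voom, and without CTR 4, KO 5 or both CTR 4 and CTR 5. Eif1ax, the X-linked copy, did not pass (adjusted p = 0.124), with a mean of 49.3 CPM in the CTR libraries and 41.0 CPM in the KO libraries. The coding sequences of Eif1a and Eif1ax were 85.7% identical over 434 aligned bases, so some reads may be hard to assign.

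Eif1, the start codon fidelity factor, was at 109.7, 114, 115, 192 and 138 CPM in CTR and at 141, 152, 158, 141 and 153 CPM in KO. CTR 4 was above every other library. The log2 fold change was 0.16 (SE 0.14, adjusted p = 0.556) with all libraries and 0.40 without CTR 4 and CTR 5 (adjusted p = 0.00824). Eif1 was called higher in 3 of 19 other settings, those 3 being voom, the fit without CTR 4 and the fit without CTR 4 and CTR 5.

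Of the 14 eIF3 genes Eif3j1 fell and none rose. In value 11 were below 0 and 3 above (8 and 6 without CTR 4 and CTR 5), with a median of -0.20, and -0.16 over the 12 genes other than Eif3j1 and Eif3j2. At an unadjusted p under 0.05, 6 were lower and 0 higher, against 11.9% and 10.0% of all genes. DESeq2 called 5 lower and 0 higher, against 5.23% and 4.54% of all genes, and voom called 6 lower and 1 higher, against 6.76% and 7.77%. Both counts had Eif3b, Eif3c, Eif3d, Eif3i and Eif3j1 among the lower. Eif3j2, described below, was among the 6 at unadjusted p and the 6 by voom. The sum over the eIF3 genes ranged from 1730 to 2020 CPM in CTR and from 1628 to 1688 CPM in KO, with no overlap. This sum includes Eif3j2, at 0 counts in KO 1 to KO 4, so part of the gap is that of Eif3j2.

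The eIF3 genes that separated the genotypes included parts of the core and of the mRNA-facing side. Eif3d, whose product can bind the mRNA cap, stood at 137, 125, 133, 132 and 153 CPM in CTR and at 106, 110.4, 118, 113 and 109 CPM in KO. Every KO value lay below every CTR value, and the difference was -0.29 on the log2 scale (SE 0.08, adjusted p = 0.0587). Without CTR 4 and CTR 5 it was -0.24 with an adjusted p of 0.0484. With the length and GC correction Eif3d had -0.22 (adjusted p = 0.110), and it was called lower in 4 of 19 other settings. Eif3c, a core scaffold subunit gene, stood at 271, 268, 288, 275 and 252 CPM in CTR and at 220.2, 229, 246, 231 and 245 CPM in KO. That difference was small against its level, at -0.21 (SE 0.07, adjusted p = 0.112), and -0.24 without CTR 4 and CTR 5 (adjusted p = 0.0464). With the length and GC correction Eif3c had -0.16 (adjusted p = 0.190), and it was called lower in 3 of 19 other settings. Eif3b and Eif3i encode subunits that bind each other. Eif3b stood at 179, 192, 191, 192 and 222 CPM in CTR and at 169, 154, 163, 147 and 177 CPM in KO, a small gap at -0.27 (SE 0.08, adjusted p = 0.0918). Eif3i stood at 81.1, 79.5, 84.8, 111 and 92.6 CPM in CTR and at 70.2, 73.7, 72.2, 69.8 and 76.2 CPM in KO, at -0.31 (SE 0.10, adjusted p = 0.0949). Its highest value was that of CTR 4, and without CTR 4 and CTR 5 Eif3i had -0.17 (adjusted p = 0.111).

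Other eIF3 genes differed little between genotypes or rested on CTR 4. Eif3a, Eif3l and Eif3m had CTR means of 233, 118 and 74.8 CPM and KO means of 224.5, 117 and 76.9 CPM. Eif3f, one of the subunits with a deubiquitinase-like fold, stood at 173, 159.8, 147, 250.1 and 154 CPM in CTR and at 198, 204, 194, 206 and 184 CPM in KO. Only CTR 4 lay above the KO range. The log2 fold change was 0.16 (SE 0.13, adjusted p = 0.527), and 0.30 without CTR 4 and CTR 5 (adjusted p = 0.0333). Eif3f was called higher in 3 of 19 other settings, those 3 being voom, the fit without CTR 4 and the fit without CTR 4 and CTR 5.

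The eIF3j genes need their own account, because Eif3j1 and Eif3j2 encode the same loosely attached subunit from near-identical copies. In the GENCODE M21 transcripts the coding sequence of Eif3j1 matched that of Eif3j2 at 784 of 784 aligned bases, so reads from the coding sequence cannot be told apart, and the call of Eif3j1 is uncertain to that extent. Eif3j1 (ENSMUSG00000027236) stood at 33.0, 29.5, 34.8, 33.2 and 34.2 CPM in CTR and at 21.4, 23.8, 27.2, 23.1 and 27.5 CPM in KO. It fell from 32.9 ± 2.05 to 24.6 ± 2.65 CPM (SD, n = 5 each). Its log2 fold change was -0.42, with an SE of 0.10 and an adjusted p of 0.0353. The call was lost in 6 of 10 leave-one-out fits, namely without CTR 1, CTR 3, CTR 5, KO 1, KO 2 or KO 4 (adjusted p between 0.0553 and 0.103). With the length and GC correction Eif3j1 had -0.35 (adjusted p = 0.0477).

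Eif3j2 (ENSMUSG00000043424) was present or absent by library. It had 461, 409, 507, 385 and 382 counts in CTR 1 to CTR 5, 0 counts in each of KO 1 to KO 4, and 371 counts in KO 5. On the CPM scale these were 25.8, 23.9, 28.6, 26.0 and 23.8 in CTR and 21.3 in KO 5. KO 5 thus lay close to the CTR libraries although its Gnas level was that of a KO library. The 5 KO libraries together did not pass (adjusted p = 0.210), while voom called the gene lower (adjusted p = 0.00065). Against the limit of 3 counts per library, the lowest CTR library was at least 133-fold above each of KO 1 to KO 4. Leaving out KO 5 made it a call, but KO 5 is the library that departs from the other KO libraries, so that fit supports nothing. Eif3j2 met the CPM rule through the CTR libraries and KO 5.

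Summed, Eif3j1 and Eif3j2 came to 58.7, 53.4, 63.4, 59.2 and 58.0 CPM in CTR and to 21.4, 23.8, 27.2, 23.1 and 48.8 CPM in KO. The sum therefore followed Eif3j2. Eif3j1 alone was no higher in KO 1 to KO 4, where Eif3j2 was at 0, than in KO 5. Gm3650, the gene listed just before Eif3j2 in RefSeq, had at least 51 counts in every library. It averaged 3.83 CPM over the CTR libraries and 3.27 CPM over the KO libraries (adjusted p = 0.433). The cause of the 0 counts was not tested, and the values of Eif3j2 are given as those of these libraries, not of the genotype.

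**Figure D3:**
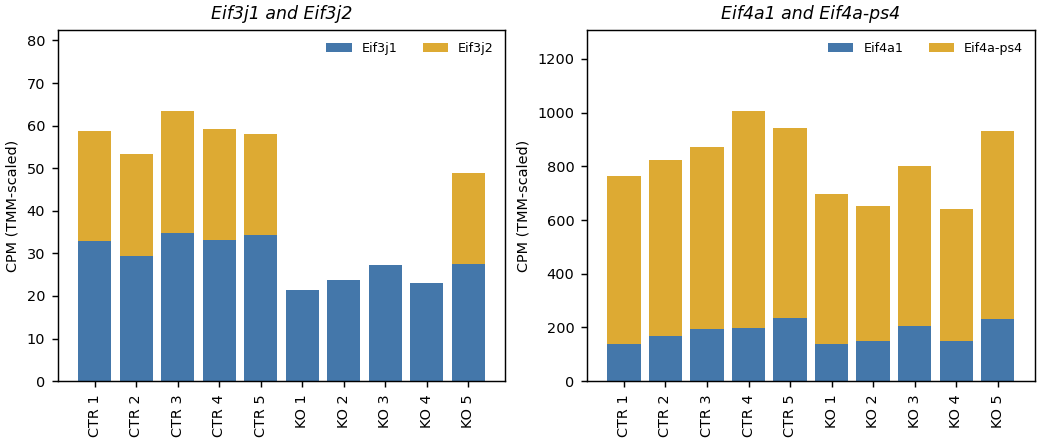
Stacked CPM by library of Eif3j1 with its copy Eif3j2 (left) and of Eif4a1 with the pseudogene Eif4a-ps4 (right). Eif3j2 is absent in KO 1 to KO 4 and stands at 21.3 CPM in KO 5. Eif4a-ps4 carries between 74.5 and 81.8% of the Eif4a1 and Eif4a-ps4 sum in every library.

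The genes of eIF4F and its helicase cofactors gave no call in 11 genes. At an unadjusted p under 0.05 Eif4b and Eif4a2 were higher and none lower, against 10.0% and 11.9% of all genes. DESeq2 and voom each called these 2 as higher and no gene of the group as lower. Of all genes, DESeq2 called 4.54% higher and 5.23% lower, and voom 7.77% and 6.76%. Of the other helicase and cofactor genes, Eif4a3 and Eif4h had KO means close to CTR, 55.9 against 57.8 CPM and 256 against 248 CPM. Eif4a1 had 175 against 187 CPM, without the reads counted to its pseudogene described below. Eif4b, which stimulates the eIF4A helicase, stood at 306, 261, 255, 292 and 226 CPM in CTR and at 353, 380.3, 318, 399 and 314 CPM in KO. All KO libraries lay above all CTR libraries, with means of 268 ± 31.6 and 353 ± 37.6 CPM (SD, n = 5 each). The log2 fold change was 0.40 (SE 0.10, adjusted p = 0.0537), just outside the threshold, and Eif4b passed in 7 of 19 other settings.

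Eif4a2, the second cytoplasmic eIF4A helicase, was at 71.8, 69.6, 74.3, 87.2 and 64.8 CPM in CTR and at 88.8, 131, 103, 112 and 73.7 CPM in KO. KO 5 alone lay within the CTR range. Its difference was 0.47 on the log2 scale (SE 0.14, adjusted p = 0.0854), and 0.57 without KO 5 (adjusted p = 0.0353). It was 0.36 without KO 2 (adjusted p = 0.205) and 0.41 with the length and GC correction (adjusted p = 0.199). Eif4a2 was called higher in 3 of 19 other settings.

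Eif4a1, the main cytoplasmic helicase gene, has a near-identical processed pseudogene, which is no member. Eif4a-ps4 matched the Eif4a1 coding sequence at 1217 of 1218 aligned bases. The stretch around the only difference is shown here to let the copies be compared. Both were read 5′ to 3′ on the transcript strand from GENCODE M21 (GRCm38), bases 474 to 594 of the coding sequence or transcript counted from 1 at its first base, and capitals mark the 1 base that differs (G534A, with the base of Eif4a1 first).
Eif4a1: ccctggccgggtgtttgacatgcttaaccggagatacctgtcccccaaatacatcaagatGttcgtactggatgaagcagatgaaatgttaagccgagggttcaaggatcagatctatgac
Eif4a-ps4: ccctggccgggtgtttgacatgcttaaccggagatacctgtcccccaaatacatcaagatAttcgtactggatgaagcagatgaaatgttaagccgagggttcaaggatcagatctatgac

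Eif4a-ps4 received more counts than Eif4a1 in every library. It stood at 624, 655, 678, 808 and 706 CPM in CTR and at 558, 504, 597, 489 and 700.2 CPM in KO, against Eif4a1 at 139, 169, 193, 197 and 236 CPM in CTR and at 139, 150.1, 205, 151 and 232 CPM in KO. Per length the deposited FPKM was 517 for Eif4a-ps4 and 19.4 for Eif4a1 (means over the 10 libraries). The value of Eif4a1 is thus uncertain, since it is the level of those reads that the authors' counting assigned to Eif4a1. The sum of both ranged from 763 to 1005 CPM in CTR and from 639.6 to 933 CPM in KO, with overlap. Its means were 881 ± 95.2 CPM in CTR and 745 ± 123 CPM in KO (SD, n = 5 each). Neither passed alone (Eif4a-ps4 log2 fold change -0.29, SE 0.11, adjusted p = 0.157, and -0.17 with the length and GC correction).

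The cap-binding and scaffold genes showed no call. Eif4e, the cap-binding protein gene, stood at 68.6, 70.0, 81.6, 24.7 and 69.1 CPM in CTR and at 53.1, 59.8, 60.8, 56.2 and 75.2 CPM in KO. CTR 4 was below every other library. The log2 fold change of Eif4e was -0.04 (adjusted p = 0.936), and -0.27 without CTR 4 and CTR 5 (adjusted p = 0.161). The relatives Eif4e2, a cap-binding repressor, and Eif4e3 had means of 51.9 and 34.6 CPM in CTR and 55.2 and 34.0 CPM in KO. The scaffold gene Eif4g1 had means of 260.5 ± 37.2 CPM in CTR and 260.2 ± 30.04 CPM in KO. Eif4g2, a scaffold without the eIF4E-binding site, had 455 ± 59.7 and 419 ± 48.3 CPM (SD, n = 5 each).

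The 3 genes of eIF4E-binding proteins were all above 0 in value and none passed (unadjusted p under 0.05 in 0). Without CTR 4 and CTR 5, Eif4enif1 was below 0, at -0.05. DESeq2 called none and voom called Eif4ebp1 as higher (adjusted p = 0.00690), against 4.54% and 7.77% of all genes called higher. Eif4ebp1, which encodes the mTORC1 target 4E-BP1, stood at 59.2, 52.5, 51.7, 100.5 and 83.4 CPM in CTR and at 92.9, 104, 84.2, 99.98 and 72.5 CPM in KO. CTR 1 to CTR 3 lay below every KO library, and CTR 4 and CTR 5 lay within the KO range. Its difference was 0.39 on the log2 scale (SE 0.19, adjusted p = 0.246) with all libraries and 0.74 without CTR 4 and CTR 5 (adjusted p = 0.00917). Eif4ebp1 was called higher in 2 of 19 other settings, by voom and without CTR 4 and CTR 5.

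Eif4ebp2, the second 4E-BP gene, stood at 128, 130.2, 134, 116 and 87.8 CPM in CTR and at 144, 136, 139, 139 and 145 CPM in KO. The genotypes did not overlap, and CTR 5 was lowest. Its log2 fold change was 0.24 (SE 0.11, adjusted p = 0.229), and 0.10 without CTR 4 and CTR 5. The sum of the 3 genes, with Eif4enif1, which encodes the eIF4E transporter 4E-T, ranged from 196 to 242 CPM in CTR and from 248 to 271 CPM in KO, with no overlap.

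**Figure D4:**
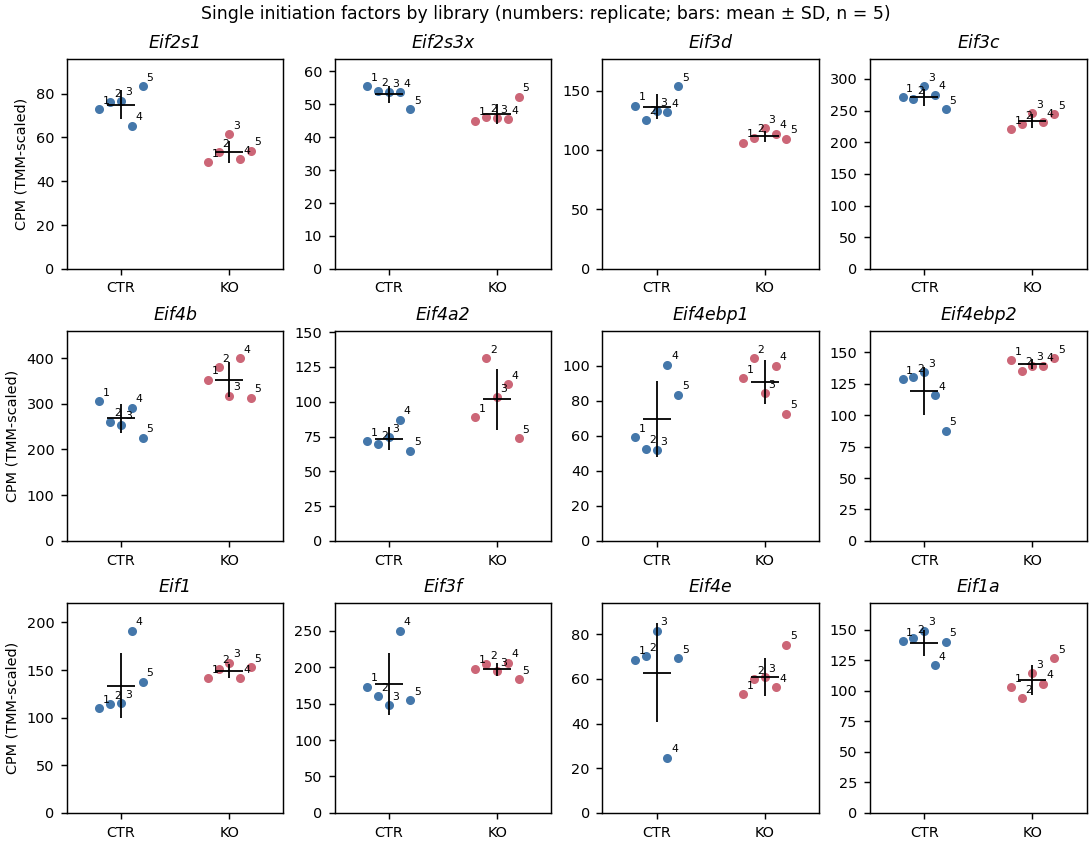
CPM of 12 members by library (points numbered by replicate) with the mean and SD of each genotype. Eif2s1, Eif3d, Eif3c, Eif4b and Eif4ebp2 separate the genotypes. CTR 4 stands apart in Eif1, Eif3f and Eif4e, and CTR 4 and CTR 5 lie within the KO range in Eif4ebp1.

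None of the 5 genes of the late factors passed, and at an unadjusted p under 0.05 there were 0. DESeq2 and voom called 0 as well. Eif5a was the member of lowest p, at 349, 376, 473, 534 and 496 CPM in CTR and 403, 304, 457, 339 and 383 CPM in KO. The libraries of both genotypes were spread widely and overlapped (log2 fold change -0.24, SE 0.14, adjusted p = 0.342). The value of Eif5a was -0.08 without CTR 4 and CTR 5 (adjusted p = 0.757). Eif6, which keeps the ribosomal subunits apart, had means of 81.5 and 71.8 CPM, and Eif5b, the GTPase of subunit joining, 106 and 99.7 CPM, in CTR and KO. Eif5, which makes eIF2 hydrolyse its GTP, ranged from 58.5 to 128 CPM in CTR and from 67.4 to 138 CPM in KO.

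**Figure D5:**
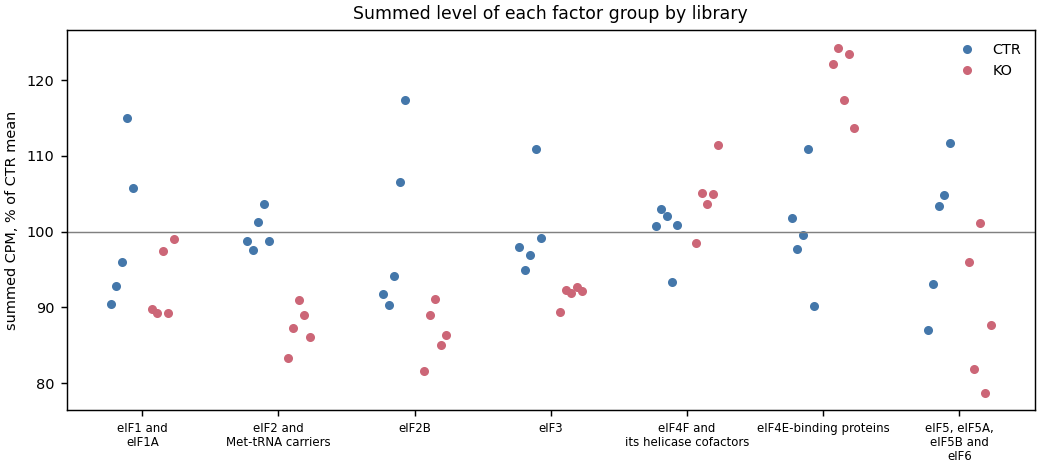
Summed CPM of each factor group by library, as a percentage of the CTR mean (axis not from 0). The sums of the genotypes do not overlap for the eIF2 group, eIF3 and the eIF4E-binding proteins. They overlap for the other 4 groups. The eIF3 sum includes Eif3j2, at 0 counts in KO 1 to KO 4.

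Other genes of translation and its control were read from 6 lists, and 4 of 60 genes tested rose and none fell by edgeR, against 1.83% higher and 2.11% lower of all genes. By DESeq2 6 were higher and 4 lower, against 4.54% and 5.23%, and by voom 4 and 6, against 7.77% and 6.76%. At an unadjusted p under 0.05 edgeR had 7 higher and 10 lower, against 10.0% and 11.9%. These lists were drawn up with earlier results of these data known. Among elongation and termination factors 1 of 11 rose: Eef2, the translocase of elongation, stood at 1481, 1452, 1339, 1481 and 1396 CPM in CTR and at 1836, 1827, 1649, 1977 and 1672 CPM in KO. The genotypes did not overlap, with a difference of 0.33 on the log2 scale (SE 0.08, adjusted p = 0.0388). The call was lost in 8 of 10 leave-one-out fits, all but those without CTR 4 or KO 5 (adjusted p up to 0.109). With the length and GC correction the adjusted p was 0.0653.

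Of 13 initiation partners tested (of 14) Paip2b rose, which encodes an inhibitor of the poly(A)-binding protein. It had means of 14.8 ± 1.16 CPM in CTR and 19.8 ± 0.470 CPM in KO (SD, n = 5 each; log2 fold change 0.42, SE 0.09, adjusted p = 0.0273). Its call was lost without CTR 3 and without any 1 of KO 1 to KO 4, where the adjusted p reached 0.0779. Of 14 genes of mTORC1 and MNK signalling Rptor, the raptor scaffold gene of mTORC1, rose from 47.9 ± 7.05 to 65.8 ± 5.98 CPM (0.46, SE 0.11, adjusted p = 0.0443). The call was lost in 9 of 10 leave-one-out fits, all but that without CTR 1 (adjusted p up to 0.126), and had 0.19 with the length and GC correction (adjusted p = 0.196).

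Of 10 integrated stress response targets tested (of 11) Ddit4, an mTORC1 inhibitor gene also induced by other stresses, rose from 3.002 ± 0.815 to 6.07 ± 1.37 CPM (1.02, SE 0.23, adjusted p = 0.0321). Its call was lost without CTR 1, without CTR 3 and without any 1 of KO 1 to KO 4, where the adjusted p reached 0.0893. Atf4, the transcription factor of this response, had means of 195 and 172 CPM, and Asns, an asparagine synthesis gene, 7.06 and 3.98 CPM (adjusted p = 0.0703). The list had 3 members above 0 and 7 below, with a median of -0.29. None of 10 eIF2 alpha kinases and phosphatase genes passed by edgeR: Dnajc3, an inhibitor of such kinases, was lowest in p, at -0.22 (SE 0.10, adjusted p = 0.227). Voom called Dnajc3 lower (-0.29, adjusted p = 0.0348), and with the length and GC correction it had -0.13 (adjusted p = 0.382). The kinase genes Eif2ak1 to Eif2ak4 had CTR means of 77.2, 28.6, 34.4 and 18.6 CPM and KO means of 72.4, 27.4, 37.2 and 21.0 CPM. Neither mitochondrial initiation factor passed, Mtif2 with -0.12 (SE 0.09, adjusted p = 0.502).

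Since Gsα acts through cyclic AMP, the letters of its response element were counted in promoters. RefSeq promoter windows (GRCm38, 250 bases before to 50 after the start) were at hand for 38 of the 48 members. The full element TGACGTCA stood in 0 of 38, against 3.63% of 9374 tested genes with a window. Its shorter core TGACG, on either strand and also part of the full element, stood in 20 of 38 (52.6%), against 35.9% of tested genes. The E-box CACGTG, a motif other than that element, stood in 10 of 38 (26.3%), against 12.0%. A gene with several starts counted once if any window held the letters. The tested genes were not matched to the members in base composition or number of starts. These are descriptions of letters in a window, not binding sites.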

How the data were processed

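Gene expression was measured by bulk RNA-seq in 10 libraries, from RNeasy total RNA and by Illumina library protocols, per the labels. GRCm39 is the build, and HISAT2, SAMtools 1.3.1, CASAVA 1.8 and edgeR are the tools in the submitters' processing notes, with no role or order. The sources used here do not give the read counter, annotation or strand setting. The authors deposited raw counts per Ensembl gene and FPKM values, per the file headers. The deposited FPKM equalled counts over gene length and column total within a relative deviation of 1.01e-05 (genes with at least 50 counts). Symbols matched 53274 of 53465 identifiers, and the other 191 held 0.0403% of counts. Biotypes, transcripts and GC content came from GENCODE M21 (GRCm38), another build than the authors', so no coordinates are given.

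Tests used edgeR 4.0.16 under R 4.3.3: filterByExpr (13203 genes, 99.9% of counts), TMM scaling and the two-sided quasi-likelihood test with genotype as the only term, Benjamini-Hochberg adjusted over all genes tested. CPM are on TMM-scaled library sizes. The SE of a log2 fold change was its size divided by √F. The test was checked on simulated data. Other settings were scaling by DESeq2 size factors or by library size alone, no low-count filter, a CPM filter, the DESeq2 1.42.0 Wald test, limma 3.58.1 voom with quality weights, a replicate block, a length and GC correction (mgcv 1.9.3), each library left out, and CTR 4 and CTR 5 left out. Copies were aligned with blastn 2.17.0.

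Members and lists were chosen with earlier results of these data known. The rule for named genes took Gnas, called members, the member of lowest p in each factor group, and called or lowest-p genes of the lists. Other members are given by level or count. Eif3b, Eif3c, Eif3d, Eif3i, Eif4a2, Eif3j2, Eif4ebp1, Eif1, Eif3f, Eif4a-ps4, Eif4a1, Eif4e, Eif2s2, Eif2s3x, Asns, Atf4, Gm3650 and Gm26712 were singled out after their values were seen.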

Additional observations from a re-analysis of the deposited data

Results flagged for a closer look

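Of 112 groups of 5 libraries checked, 10 held a single library far from the other 4 of its genotype. Chance alone flags about 1 in 20 groups. The flags fell in 8 members and in the list gene Mtif2. Not all list genes were among the groups checked. CTR 4 gave 5 of the 10 flags. It was high for Eif2s2 at 73.1 CPM (others 59.9 to 62.3), for Eif3f at 250.1 CPM (others 147 to 173), for Eif3k, an eIF3 subunit gene, at 244 CPM (others 127 to 150.3) and for Eif3m, another, at 90.5 CPM (others 69.7 to 72.4). It was low for Eif4e at 24.7 CPM (others 68.6 to 81.6). CTR 5 was low for Eif2s3x at 48.5 CPM (others 53.6 to 55.4). KO 5 was high for Eif3j2 at 21.3 CPM (others 0) and for Eif2s3x at 52.3 CPM (others 45.0 to 46.2), and low for Eif4h at 238 CPM (others 256 to 263). CTR 2 was high for Mtif2, a mitochondrial initiation factor gene, at 18.4 CPM (others 16.02 to 16.4).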

How the results depend on the processing

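All 24 genes followed by name kept their direction in all 19 other settings. Apart from Gnas they were chosen by call, by lowest p or after their values were seen. That choice favours a stable direction, so this count supports no result. Of the 456 values of these 24 genes 365 kept their side of the threshold, 51 lost a call and 40 gained one. Of the 48 members 31 kept their sign throughout, and the largest value among the other 17 was 0.22 in size. Members higher in KO numbered 1 with library size only, with the CPM filter and with the length and GC correction, 3 without CTR 4 and CTR 5, 2 by DESeq2, 5 by voom, and 0 to 3 with 1 library left out. Members lower numbered 1 with library size only and with no filter, 0 with the replicate block, 5 without CTR 4 and CTR 5, 8 by DESeq2, 10 by voom, and 0 to 4 with 1 library left out. The member median was -0.069 with library size only, -0.058 without CTR 4 and CTR 5, and -0.13 to -0.074 with 1 library left out. List genes higher numbered 1 with no filter, 0 with the replicate block, 2 with the length and GC correction, and 0 to 3 with 1 library left out. List genes lower numbered 1 without CTR 4 and CTR 5, 4 by DESeq2, 6 by voom, and 0 to 1 with 1 library left out. Over all genes tested, 3.98% were called with library size only, 4.38% with the CPM filter and 1.07% with no filter. The share was 4.29% with the length and GC correction and 0.465% to 6.49% with 1 library left out. It was 8.76% without CTR 4 and CTR 5, 9.76% by DESeq2, 14.5% by voom and 0.788% with the replicate block. Equal replicate numbers are not said to pair samples, and their deviations correlated between -0.13 and 0.06. With the replicate block 104 of all genes were called, against 520 without it, and Eif2s1 had an adjusted p of 0.0600 and Eif3j1 of 0.0795. The cause of these changes was not tested.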

Other observations

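The pattern of Eif3j2 was looked for in the whole table after its values had been seen. Eif3j2 was the 1 gene of 53465 that had at least 0.5 CPM in the CTR libraries and KO 5 and was more than 8-fold lower in each of KO 1 to KO 4. In the opposite direction, absent or nearly so in the CTR libraries and KO 5, there was also 1 gene, the pseudogene Gm26712, with 66, 48, 48 and 51 counts in KO 1 to KO 4 and 1 count in each of the other 6 libraries. In all, 16 genes had 0 counts in at least 1 library and at least 5 CPM in another.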
